A study of Mus musculus with 4 samples.

Results

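The 10 genes described here belong to the p53 pathway: Trp53, which encodes p53, and 9 genes whose transcription p53 activates, namely Mdm2, Cdkn1a, Ccng1, Bbc3, Bax, Sesn2, Phlda3, Trp53inp1 and Zmat3. They were chosen by name and are 10 of the 46078 gene rows in the deposited count tables. Expression was measured by Smart-seq2, a full-length single-cell RNA sequencing method, in wild-type mouse embryonic stem (ES) cells of the E14 line, 6 h after a sort by size. The cells had been grown in 2i, a medium whose MEK and GSK3 inhibitors hold ES cells in naive pluripotency, and were plated after the sort either in 2i or in N2B27, the base medium, in which cells start to leave that state. The study's culture medium held the cytokine LIF beside the inhibitors, so N2B27 differs from it by the lack of both. A gate on forward and side scatter took small cells, which are mostly leaving mitosis or in G1 phase, and an ungated population served as its control. Each medium held 24 small and 24 ungated cells, which gives 96 cells in 4 groups. They are called 2i small and 2i ungated, and N2B27 small and N2B27 ungated, and values for the 4 groups are given in this order. The question followed was whether sorted cells show a p53 response after 6 h, and whether medium or gate changes the levels of these genes. The labels list ungated as a sorting gate while the study also calls that population unsorted, so it is not settled whether ungated cells passed through the sorter, and an effect of sorting cannot be told apart from one of size. Each group is 1 sample. Its cells are not replicates, and no p-value was computed. The 2i and the N2B27 cells were deposited as separate sets of libraries, so medium and library set cannot be told apart. Within a set the gates carried different index primers.

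p53 is a transcription factor that is held at a low level by Mdm2, a ubiquitin ligase that marks it for degradation, and that accumulates after DNA damage and other stress. It then raises transcription of genes that stop the cell cycle, such as Cdkn1a, of genes that promote apoptosis, such as Bax and Bbc3, and of Mdm2 itself, which closes a negative feedback loop. Because p53 is controlled mainly as a protein, its activity is usually read from the mRNA of its targets rather than from Trp53 mRNA.

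p53 binds DNA at a pair of half-sites, each of 10 bases that run from purines through a C, A or T bases and a G to pyrimidines, separated by a spacer of up to 13 bases. Promoters of 300 bases, from 250 before to 50 after each RefSeq transcription start on GRCm38.p6, were searched on both strands for such a pair with at most 1 mismatch and with every central C and G in place. Of 32851 promoters in the whole table, 206 held a match (0.627%). For 8 of the 10 genes the table gave promoters, 11 in all, and matches lay in those of Cdkn1a and Ccng1, which are printed here because both genes turn up in the differences between groups described further on, together with the nearest sequence in the Bax promoter, which had 2 mismatches and so was not counted. Half-sites are in capitals, with 12 flanking bases on each side.
Cdkn1a, chr17:29090894-29090949, plus strand, no mismatch: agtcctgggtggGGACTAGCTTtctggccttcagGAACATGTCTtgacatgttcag
Ccng1, chr11:40755450-40755493, minus strand, 1 mismatch: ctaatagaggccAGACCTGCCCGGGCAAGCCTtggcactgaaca
Bax, chr7:45467067-45467111, minus strand, 2 mismatches: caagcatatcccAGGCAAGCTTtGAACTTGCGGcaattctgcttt
The Cdkn1a pair lies upstream of the start of 1 of its promoters, its nearest base at position -42. In the other Cdkn1a promoter the closest pair had 5 mismatches. The 10 bases that directly follow the printed Cdkn1a pair also match a half-site with 1 mismatch. They stand as flank because the pair with the fewest mismatches was kept. The pairs of Ccng1 and Bax have their nearest base at -176 and -181. The closest sequences of Trp53, Bbc3, Mdm2, Phlda3 and Sesn2 had 3 or more mismatches in these windows. A match describes letters and is not a measured binding site, and elements outside the windows were not searched.

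After quality control 12, 22, 20 and 21 of the 24 cells of each group were kept. Their totals on genes ranged from 1364155 to 4844170 counts, and the median number of genes with a count was 7603, 9516, 7463 and 8200. Counts on the added ERCC spike-in RNA made up a median of 3.47% and 2.45% in 2i and N2B27 small cells against 1.28% and 1.14% in ungated cells. By the cyclone classifier, 6 of 12 and 6 of 20 small cells were in G1 against 0 of 22 and 2 of 21 ungated cells, so that every gate comparison is also a comparison of phases and of spike-in share, and their part in the differences was not tested. Cyclone assigns a phase by asking which gene of a marker pair is the higher in a cell, and 3 of the 10 genes (Trp53, Cdkn1a and Ccng1) are in its pairs, so phases and ratios within a phase are not independent of the levels described here. All 8 pluripotency markers checked had counts in every group. The 5 fibroblast markers had none outside a summed level of 0.666 normalized counts in a 2i small cell, and the summed primitive endoderm and trophectoderm markers had a median of 0 in each group.

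Values are normalized counts, that is counts divided by a size factor of the cell, and a difference is the log2 ratio of group means after adding 1. Genes with a mean of at least 20 over the 2 groups were compared, and a 2-fold difference (a log2 ratio of at least 1 or at most -1) was used to count. All 10 genes passed this filter in all 4 comparisons. Intervals over counts cover counting error only, and reads carry no molecular identifiers.

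The 10 genes did not all go the same way with the gate or with the medium. In 2i, 2 genes were at least 2-fold higher in small than in ungated cells (Cdkn1a and Ccng1), against 17.6% of all genes. Another 2 were at least 2-fold lower (Sesn2 and Trp53inp1), against 26.0% of all genes. The Cdkn1a call rests on the 2i small cell of highest spike-in share. With that cell the log2 ratio of Cdkn1a was 1.45, and without it -0.74. In N2B27, only Trp53inp1 was at least 2-fold higher in small cells, against 12.8% of all genes, and none of the 10 was 2-fold lower, against 16.4%. Between small cells, Trp53inp1 and Zmat3 were at least 2-fold higher in N2B27 than in 2i (22.1% of all genes). Cdkn1a and Phlda3 were at least 2-fold lower (19.2%), and both of these calls rest on the same 2i small cell. Without it Cdkn1a was lower by less than 2-fold, and the log2 ratio of Phlda3 was 0.34. Between ungated cells, none of the 10 was 2-fold higher in N2B27 (8.05% of all genes), and Cdkn1a and Trp53inp1 were at least 2-fold lower (9.42%). The median log2 ratio of the 10 genes was -0.51 for the gate in 2i (all genes, -0.31), 0.23 for the gate in N2B27 (-0.10), 0.36 for N2B27 against 2i in small cells (0.08) and -0.31 in ungated cells (-0.02). Cells of the groups compared overlapped for each of the 10 genes in each of the 4 comparisons, as they did for every gene that passed the filter (0.0% without overlap), so the overlap says nothing particular about the 10. Scaling by the spike-ins in place of size factors moved the median of all genes to 0.80, -0.83, -1.58 and 0.06 in the same order, so ratios are to be read against the median of all genes.

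**Figure D1:**
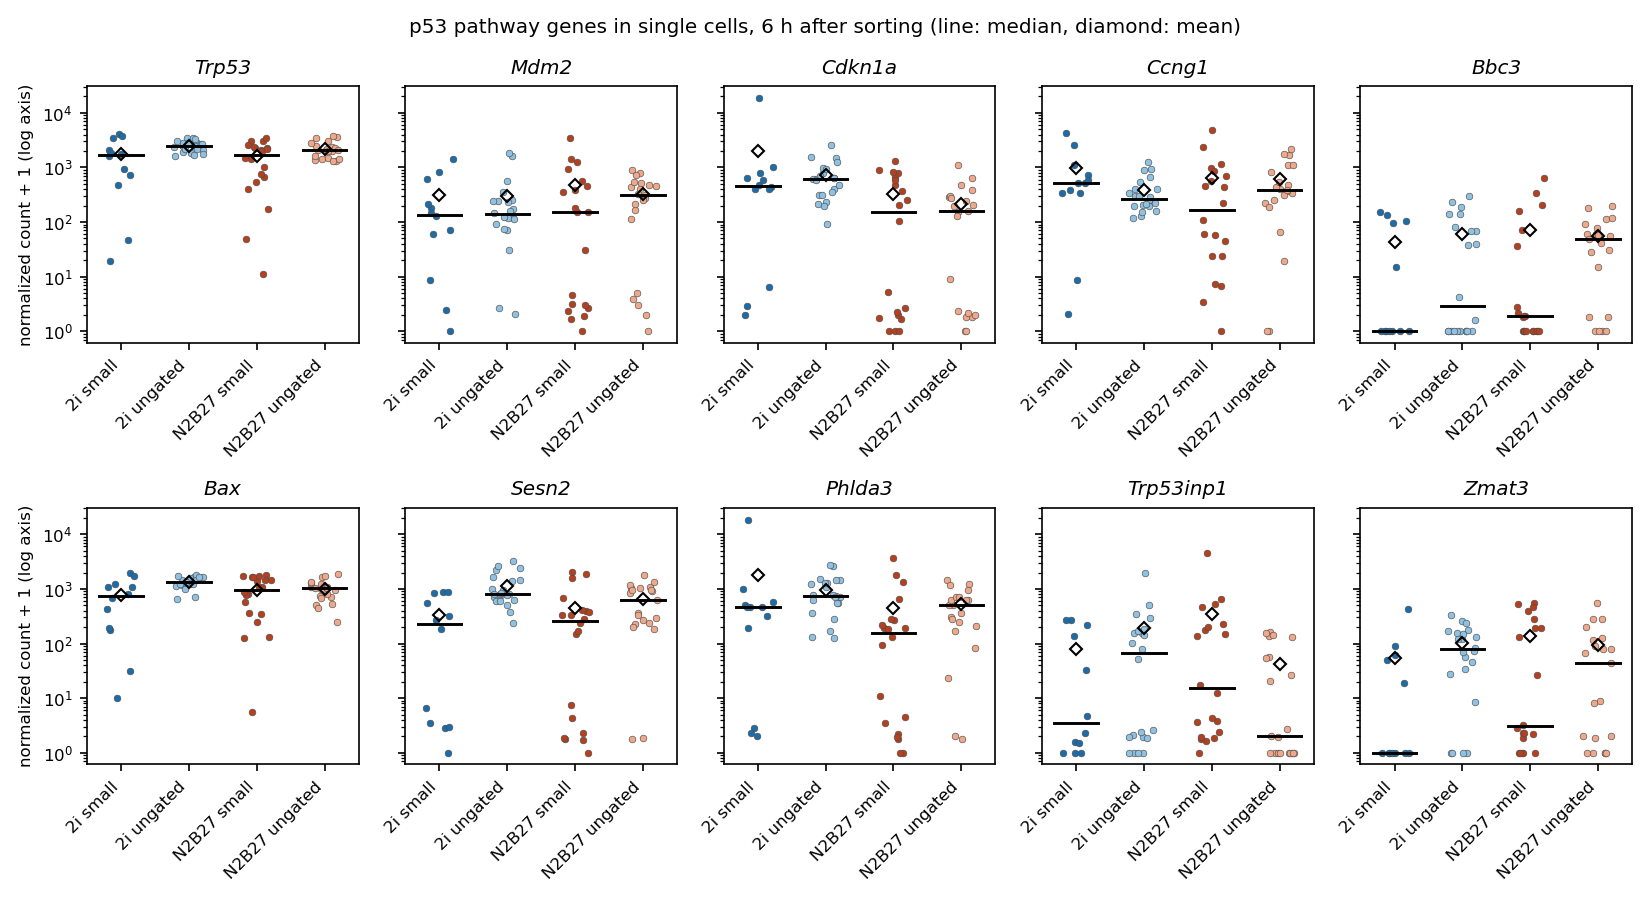
Each point is a kept cell and the vertical axis is its normalized count plus 1 on a log axis, for the 75 cells in their 4 groups; lines are medians and diamonds are means. Trp53 and Bax sit high and close together in ungated cells, the targets span several orders of magnitude within a group, and a single 2i small cell stands far above the others for Cdkn1a (18956) and Phlda3 (17984).

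Trp53 (ENSMUSG00000059552, chr11:69580359-69591873 on the plus strand of GRCm38) had counts in all 75 kept cells. Its normalized count ranged from 18.2 through a median of 1706 to 4148 in 2i small cells, and from 1649 through 2486 to 3468 in 2i ungated cells. In N2B27 the range was 10.2, 1721 and 3460.2 in small cells and 1304, 2075 and 3699 in ungated cells. The ungated groups thus lacked the low cells that both small groups held, while the highest cells of the 4 groups lay between 3460.2 and 4148. Mean levels were 1738 ± 1414, 2505 ± 542, 1586 ± 1083 and 2189 ± 755 (SD over 12, 22, 20 and 21 cells of 1 sample each), and the log2 ratio of small to ungated was -0.53 in 2i and -0.46 in N2B27. For N2B27 against 2i it was -0.13 in small and -0.19 in ungated cells. All genes had medians of -0.31 and -0.10 for the gates and of 0.08 and -0.02 for the medium, so gate and medium ratios are not compared in size. Scaling by the spike-ins gave 0.63 for the gate in 2i, where the median of all genes was 0.80. Per kilobase of exon, Trp53 was the second most abundant of the 10 genes by median in every group, after Bax.

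Mdm2 (ENSMUSG00000020184, chr10:117688875-117710758, minus strand), the inhibitor and feedback target of p53, had counts in 11 of 12, 22 of 22, 19 of 20 and 20 of 21 cells. The lowest, median and highest cells held 0, 136 and 1433 normalized counts in 2i small and 1.04, 138 and 1842 in 2i ungated cells. In N2B27 they held 0, 149 and 3404 in small and 0, 312 and 885 in ungated cells. The N2B27 ungated cells had the highest median and yet the lowest maximum. The ratio of means was close to 0 for the gate in 2i (0.01) and 0.51 in N2B27, where the highest small cell held 36.4% of its group's sum and the ratio of medians was -1.06. For N2B27 against 2i it was 0.61 in small and 0.10 in ungated cells.

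Cdkn1a (ENSMUSG00000023067, chr17:29090976-29100727, plus strand) encodes p21, an inhibitor of cyclin-dependent kinases and the best known p53 target in cell cycle arrest. In 2i ungated cells it ranged from 89.8 through a median of 624 to 2539 normalized counts, and in N2B27 ungated cells from 0 through 157 to 1093. In N2B27 small cells the values were 0, 151 and 1309.9. All 22 2i ungated cells had counts, against 19 of 21 and 17 of 20 cells in N2B27. The log2 ratio of N2B27 to 2i in ungated cells was -1.74, and in 15.2% of pairs of an N2B27 and a 2i ungated cell the N2B27 cell was the higher. This ratio kept its sign in 13 of 14 alternatives, and was -1.65 when S phase cells alone were compared. Alternatives that drop a 2i small cell or lift the filter on low genes could not change it. The ratio was 0.89 when no cell was left out for quality.

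In 2i small cells Cdkn1a ranged from 0.990 through a median of 459.9 to 18956, and the second highest cell was at 1006. The highest cell held 80.0% of the group's sum. It was a G1 cell with 40.9% spike-in counts, 4612 genes and 1560920 counts, of which 2516 were on Cdkn1a and 2387 on Phlda3, but 6 on Trp53, 4 on Bax, 1 on Ccng1 and 0 on Mdm2, Bbc3, Sesn2, Trp53inp1 and Zmat3. With this cell Cdkn1a was higher in small than in ungated 2i cells by a log2 ratio of 1.45, and without it lower, at -0.74. The ratio of N2B27 to 2i in small cells was -2.61 with it and -0.42 without it. In N2B27 the log2 ratio of small to ungated was 0.58, with the medians close together.

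Ccng1 (ENSMUSG00000020326, chr11:40748552-40755311, minus strand) encodes cyclin G1, which acts with a phosphatase on Mdm2. It ranged from 1.10 through a median of 520.3 to 4363 normalized counts in 2i small and from 116 through 265 to 1262 in 2i ungated cells. Small cells were thus both lower at the bottom and higher in the middle and at the top. The log2 ratio was 1.32, it was 1.45 without the cell of high spike-in share, and 0.93 without the highest cell of each group. With means of log2 values it was 0.07, and it stayed past 2-fold in 10 of 14 alternatives. Lifting the filter on low genes could not change it. The highest and second highest small cells (4363 and 2605) were G1 cells with 16.7% and 17.1% spike-in counts. The ratio was 0.26 among S phase cells alone. The 6 G1 cells of the 2i small group had a mean of 1492 (median 816) against 409 (median 389) in its 5 S phase cells. In N2B27 the values were 0, 166 and 4822 in small and 0, 387 and 2156 in ungated cells, with a ratio of means of 0.10. N2B27 against 2i gave -0.58 in small and 0.65 in ungated cells.

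Bax (ENSMUSG00000003873, chr7:45461697-45466898, minus strand), which permeabilises the outer mitochondrial membrane in apoptosis, had counts in every kept cell and was the most abundant of the 10 genes per kilobase by median in each group. It ranged from 9.10 through 744 to 1984 normalized counts in 2i small and from 653 through 1337 to 1818 in 2i ungated cells. In N2B27 the values were 4.48, 965 and 1784 in small and 247, 1018 and 1911 in ungated cells. As for Trp53, the low cells were in the small groups. Log2 ratios were -0.78 and -0.07 for the gate in 2i and N2B27, and 0.29 and -0.42 for the medium in small and ungated cells.

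Bbc3 (ENSMUSG00000002083, chr7:16308393-16318205, plus strand) encodes PUMA, a BH3-only activator of apoptosis. It had counts in 5 of 12, 12 of 22, 11 of 20 and 17 of 21 cells. Medians were 0, 1.96, 0.865 and 46.9 normalized counts and the highest cells 149, 294, 627 and 198. None of the 4 log2 ratios of means reached 2-fold: they were -0.49 and 0.37 for the gate and 0.78 and -0.08 for the medium.

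Sesn2 (ENSMUSG00000028893, chr4:132492032-132510501, minus strand) encodes sestrin 2, a stress protein that restrains mTORC1. It ranged from 0 through 229 to 886 in 2i small and from 234 through 821 to 3253 in 2i ungated cells, so that the highest small cell lay close to the ungated median. The log2 ratio was -1.82, it was negative in all 14 alternatives, and a small cell was the higher in 16.3% of pairs. Lifting the filter on low genes could not change this ratio. In N2B27 the values were 0, 261 and 2023 in small and 0.799, 633 and 1775 in ungated cells, with a ratio of -0.59. The ratio of N2B27 to 2i was 0.43 in small and -0.80 in ungated cells. Over all kept cells, with group means taken off, Spearman's correlation of Sesn2 with the spike-in share of the cell was -0.51, the lowest of the 10 genes.

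Phlda3 (ENSMUSG00000041801, chr1:135766119-135769136, plus strand), an inhibitor of Akt at the membrane, was dominated by the same 2i small cell as Cdkn1a. In 2i small cells it ranged from 0.990 through 457 to 17984, with 989 in the second highest cell, and in 2i ungated cells from 123 through 745 to 2776. The log2 ratio was 0.92 with the cell of high spike-in share and -1.43 without it. In N2B27 the values were 0, 154 and 3753 in small and 0.771, 498 and 1471 in ungated cells, with a ratio of -0.19. N2B27 against 2i gave -2.00 in small cells, 0.34 without the same cell, and -0.90 in ungated cells.

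Trp53inp1 (ENSMUSG00000028211, chr4:11156431-11174379, plus strand) encodes a nuclear protein that p53 induces and that acts with it in apoptosis. It was sparse, with medians of 2.56, 65.6, 14.0 and 0.989 normalized counts and highest cells of 272, 1969, 4457 and 165. A count was seen in 19 of 20 N2B27 small against 12 of 21 N2B27 ungated cells. The log2 ratio of small to ungated was 3.03 in N2B27 and -1.27 in 2i, and that of N2B27 to 2i was 2.16 in small and -2.15 in ungated cells. The highest N2B27 small cell held 63.5% of its group's sum. The N2B27 gate ratio stayed past 2-fold in 14 of 14 alternatives, from 1.01 to 3.96, and was 2.32 among S phase cells. The lowest of these values came from scaling by the spike-ins. Alternatives that drop a 2i small cell or lift the filter on low genes could not change this gate ratio.

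Zmat3 (ENSMUSG00000027663, chr3:32334792-32366014, minus strand) encodes an RNA-binding zinc finger protein that regulates splicing. It had counts in 5 of 12, 18 of 22, 15 of 20 and 16 of 21 cells, with medians of 0, 77.1, 2.03 and 42.2 normalized counts and highest cells of 428, 333, 542 and 563. Both small groups thus had the lower medians. The log2 ratio of small to ungated was -0.91 in 2i and 0.58 in N2B27, and that of N2B27 to 2i was 1.35 in small and -0.14 in ungated cells. Per kilobase it was the least abundant or next to least abundant of the 10 genes in each group.

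**Figure D2:**
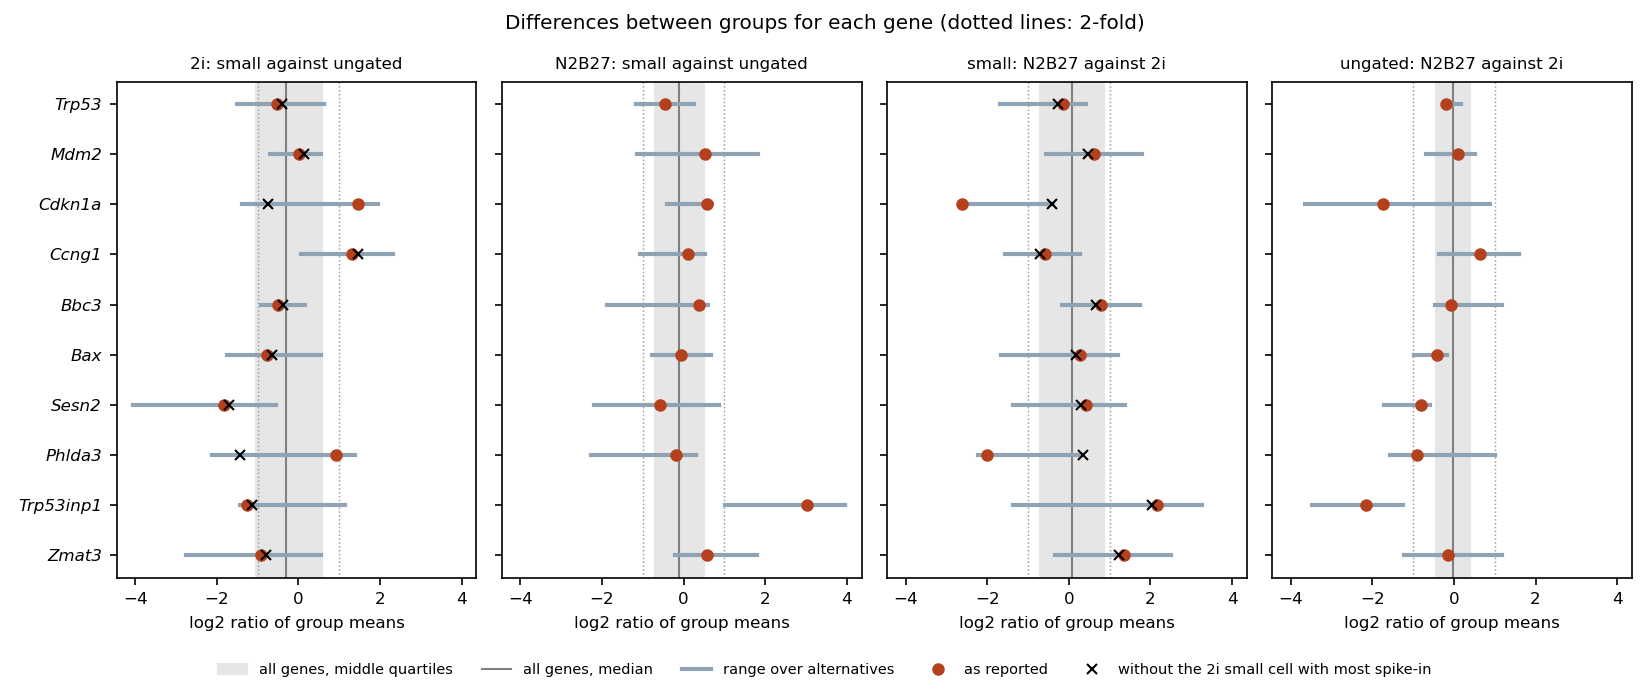
The horizontal axis is the log2 ratio of group means for each gene in the 4 comparisons; points are the reported values, bars the range over 14 alternatives, crosses the value without the 2i small cell of highest spike-in share, and grey the median and middle quartiles of all genes. Removing that cell moves Cdkn1a from 1.45 to -0.74 and Phlda3 from 0.92 to -1.43 for the gate in 2i. The gate in N2B27 does not hold that cell, and there the bar of Trp53inp1 stays above 2-fold.

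With group means taken off, Spearman's correlation between log2 values over the 75 kept cells was above 0 in all 36 pairs of targets. The median was 0.28 and the highest value 0.50. Correlations with other genes also leaned above 0. The median over the 7826 genes described below was above 0 for each target, from 0.02 (Ccng1) to 0.15 (Sesn2). With the 8 other targets the median was from 0.17 (Trp53inp1) to 0.37 (Bbc3). Whether 36 of 36 is particular to these targets was not tested. Within single groups the correlation between targets was above 0 in 27, 28, 35 and 29 of the 36 pairs. Lowest values were -0.36, -0.20, -0.11 and -0.18 and medians 0.24, 0.23, 0.31 and 0.29. Between Trp53 mRNA and a target it was above 0 in 5 of 9 pairs over all kept cells, with a median of 0.02, and in 7, 2, 3 and 2 of 9 within the groups. These are descriptions over cells, which share library sets and depth, and genes differ in how often they were detected. The same coefficient between each of the 10 genes and the number of genes detected in a cell was between 0.13 and 0.43.

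The closest pair was Mdm2 and Cdkn1a. Among the 7826 genes with a count in at least 50% of kept cells, Cdkn1a had the highest correlation with Mdm2 (0.50), followed by Hagh (0.46), Ranbp3 (0.44), Exoc3 (0.43) and Ywhab (0.43), whereas the middle 95% of these genes lay between -0.22 and 0.29. Ccng1 had 15 genes above it, Bbc3 21 and Phlda3 67, and 6 of the 8 other targets lay at or above the 97.5 percentile of the correlation with Mdm2. Seen from Cdkn1a, the genes most like it were Cd81 (0.51), Gm6311 (0.51), Dnajc9 (0.50), Foxh1 (0.50) and Commd3 (0.50), with Mdm2 next in order and Phlda3 (0.46), Bbc3 (0.43) and Ccng1 (0.36) also at or above its 97.5 percentile of 0.32. Seen from Bax and from Sesn2, none of the other targets reached the 97.5 percentile of that gene's own correlations (0.36 for Bax and 0.46 for Sesn2).

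The pair Mdm2 and Cdkn1a had a correlation of 0.51 within 2i ungated, 0.42 within N2B27 small and 0.69 within N2B27 ungated cells, and -0.14 within the 12 2i small cells. It was 0.55 without the cell of high spike-in share, 0.51 after thinning every cell to 1000000 counts, 0.53 among the 28 S phase cells and 0.57 among the 33 G2/M cells. Both genes were nearly silent in some cells: 12 of 75 had fewer than 10 normalized counts of each, of which 6 were N2B27 small, 4 N2B27 ungated, 2 2i small and 0 2i ungated. A further 8 cells had at least 10 of Mdm2 alone and 6 of Cdkn1a alone. Among the 49 cells with at least 10 of both, which also span a narrower range, the correlation was 0.35.

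**Figure D3:**
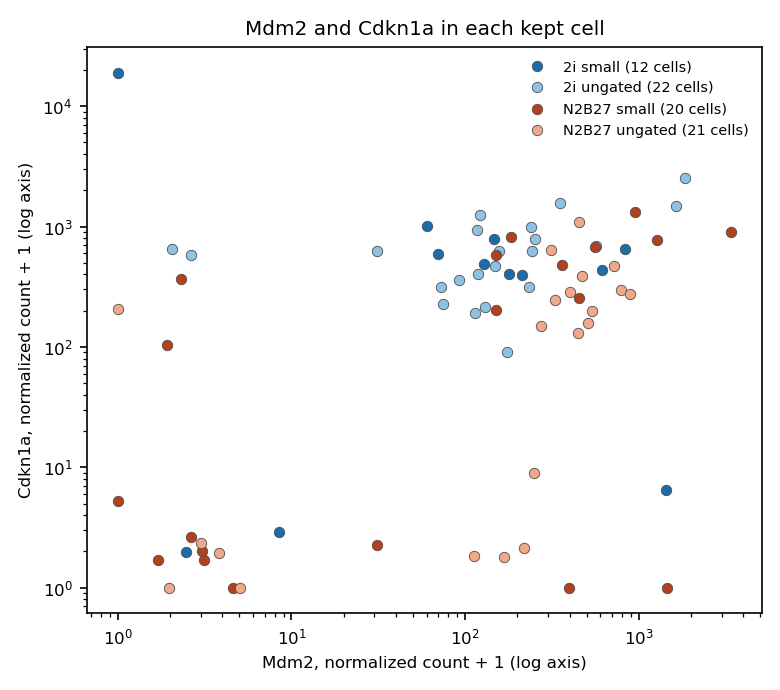
Each point is a kept cell, with the normalized count plus 1 of Mdm2 on the horizontal and of Cdkn1a on the vertical log axis, coloured by group. Most cells lie in a cloud with both genes above 10 normalized counts, and 12 cells lie near the origin. The 2i small cell with 18956 normalized counts of Cdkn1a has none of Mdm2.

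**Figure D4:**
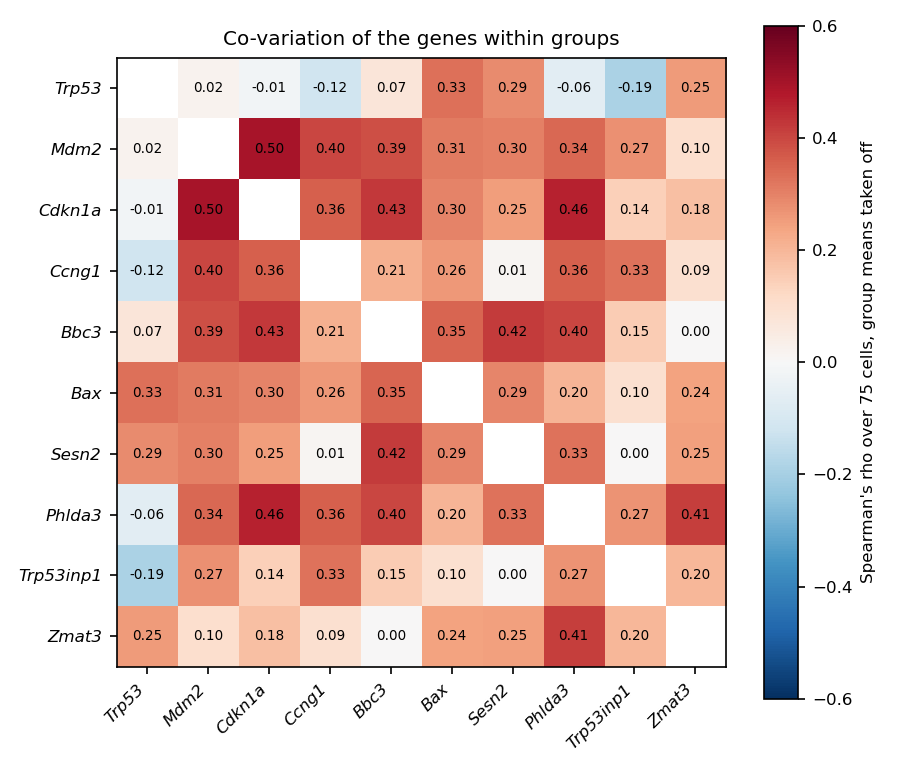
Each square gives Spearman's correlation for a pair of the 10 genes over 75 kept cells with group means taken off. All 36 squares between targets are at 0 or above, from 0.00 to 0.50, and the row of Trp53 runs from -0.19 to 0.33. The median correlation of each target with the 7826 genes compared was also above 0.

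Several targets were high in the same single cells. The 19 highest of the 75 cells were marked for each of the 9 targets. Group means were not taken off for this, and no other set of 9 genes was marked for comparison. Whether the counts are particular to these targets was thus not tested. Of the 75 cells, 18 were marked for none, 16 for 1 and 14 for 2, and 5 cells were marked for 7 or more, 3 of them 2i ungated and 2 N2B27 small. Counted from the lowest Trp53 level of the group, the 2i ungated cells ranked 3, 8 and 10 of 22 and the N2B27 small cells 2 and 15 of 20. A 2i ungated cell in G2/M with 10232 genes was marked for 8 and was the highest of its group for 5 genes, with 1842 normalized counts of Mdm2, 2539 of Cdkn1a, 1262 of Ccng1, 1818 of Bax and 2776 of Phlda3, beside 1770.1 of Trp53, the third lowest of the group's 22 cells. An N2B27 small cell in G1 held 3404 of Mdm2, 4822 of Ccng1 and 4457 of Trp53inp1, each the highest of its group. Beside these it held 10.2 of Trp53, the lowest of its group, and it had 6335 genes and 5.52% spike-in counts. A 2i small cell in G1 held 1433 of Mdm2 and 4363 of Ccng1 beside 18.2 of Trp53, also the lowest of its group. That cell had 5765 genes and 16.7% spike-in counts. Among 2i small and N2B27 ungated cells, none was marked for more than 5 targets.

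By group, Cdkn1a was among its 19 highest in 4 of 12, 9 of 22, 5 of 20 and 1 of 21 cells. For Mdm2 the numbers were 3, 3, 6 and 7, for Ccng1 4, 3, 6 and 6, and for Bax 2, 8, 6 and 3. The medium with more high cells thus differed from target to target. The number of the 9 targets with a count in a cell had a median of 7 in 2i small cells and 8 in each other group, and 3, 7, 8 and 6 cells had counts of all 9. The summed level of the 9 targets had a median of 3921, 4389, 2516 and 2727 normalized counts in the 4 groups, with ranges that overlapped.

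Among the genes that act on p53 itself, 18 regulators were listed. For the gate in 2i, 12 passed the filter, 1 of which was at least 2-fold higher (17.6% of all genes) and 5 lower (26.0%) in small cells, with a median of -0.46. The lowest was Aurka (241 against 1043 normalized counts, -2.11), a mitotic kinase, and the highest Atr (33.0 against 13.4, 1.24), a kinase of the replication stress response. A single small cell held 60.2% of the Atr sum, and its ratio was 0.87 without the highest cell of each group and 0.30 with means of log2 values. For the gate in N2B27, 13 passed, 5 higher (12.8% of all genes) and 3 lower (16.4%), with a median of 0.80. Usp7, a deubiquitinase of Mdm2 and p53, was highest (454 against 107, 2.08, and 0.83 with means of log2 values). Hipk2, a p53 kinase, was lowest, with 1 count in 20 small cells against 1146 counts in 3 of 21 ungated cells, of which 1 held 75.5% of the group's sum. It passed the filter through those 3 cells alone, so no ratio is given, but it is still counted among the 3 lower genes and in the median. Between media, 13 and 14 passed, with 5 higher (22.1% of all genes) and 1 lower (19.2%) in N2B27 for small cells (median 0.57) and 3 higher (8.05%) and 4 lower (9.42%) for ungated cells (median -0.38).

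A wider list held 32 other p53 targets. For the gate in 2i, 22 passed, 2 higher (17.6% of all genes) and 11 lower (26.0%) in small cells, with a median of -0.99. Pidd1 (-3.03), Ppm1d (-2.54) and Ptp4a3 (-2.35) were lowest and Tigar (3.85), Sfn (1.43) and Tnfrsf10b (0.28) highest. For Tigar, a regulator of glycolysis, the highest small cell held 87.8% of the sum and the ratio was 0.95 without the cell of high spike-in share. For Sfn, which encodes 14-3-3 sigma, a single small cell held 98.4%, and the ratio was -3.14 without the highest cell of each group. For the gate in N2B27, 26 passed, 2 higher (12.8% of all genes) and 4 lower (16.4%), with a median of -0.48. Apaf1, the core of the apoptosome, Pmaip1, which encodes the BH3-only protein NOXA, and Ercc5 (0.56) were highest. Sesn1 (-3.64), Aen (-1.31) and Perp (-1.09) were lowest. Counts of Apaf1 were seen in 8 of 20 small cells and in 5 of 21 ungated cells, and of Pmaip1 in 6 of 20 and 1 of 21. Their ratios thus rest on a minority of the cells of each group and are not a level of the group as a whole. No ratio is therefore given for Apaf1 and Pmaip1, but they are still counted as the 2 higher genes and in the median. Between media, 9 of 22 were higher (22.1% of all genes) and 2 lower (19.2%) in N2B27 in small cells (median 0.57), and 2 of 24 higher (8.05%) and 2 lower (9.42%) in ungated cells (median 0.03).

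**Figure D5:**
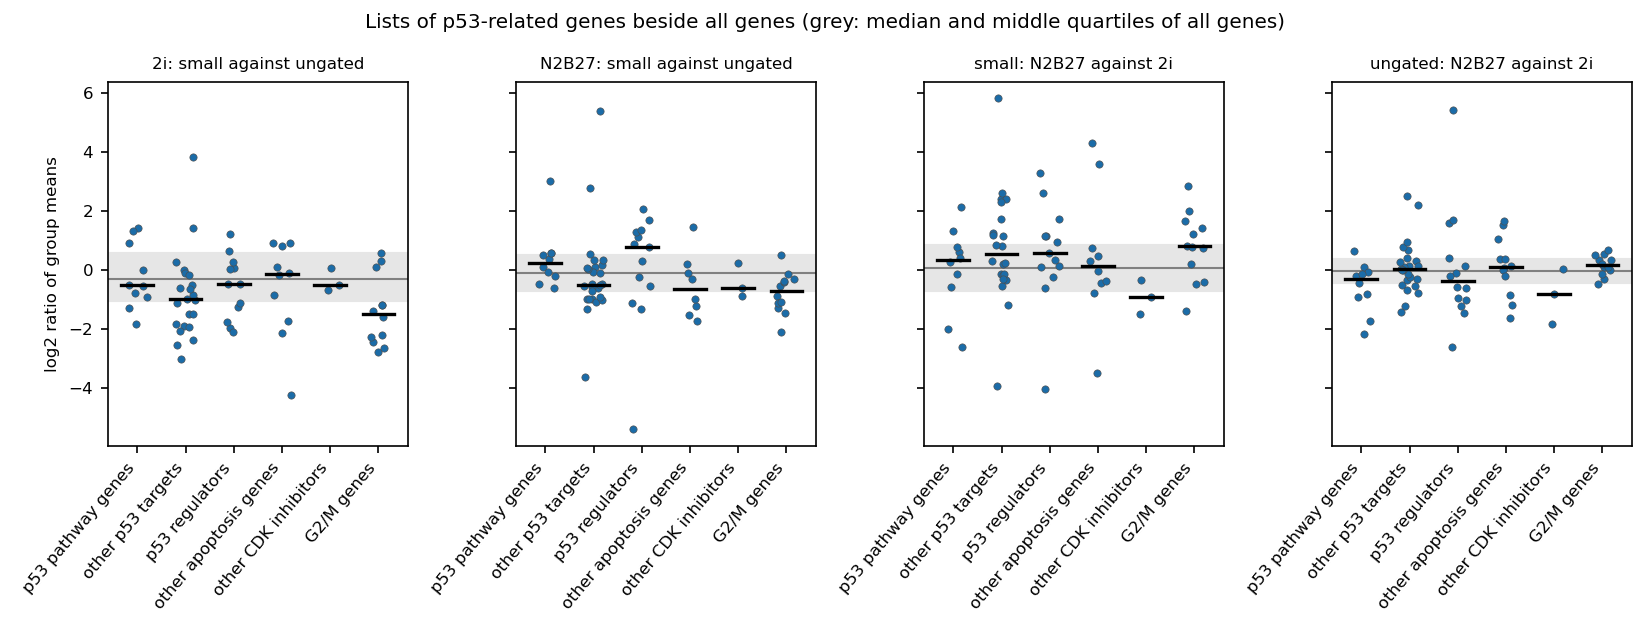
The vertical axis is the log2 ratio of group means for each gene that passed the filter, by list and comparison; black lines are list medians, and grey marks the median and middle quartiles of all genes. For the gate in 2i the wider targets (median -0.99) and the G2/M genes (-1.48) lie lower than the median of all genes (-0.31).

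Counts in the other lists are to be read against the same shares of all genes, 17.6% higher and 26.0% lower for the gate in 2i, 12.8% and 16.4% for the gate in N2B27, 22.1% and 19.2% for the medium in small and 8.05% and 9.42% in ungated cells. Of 12 genes of G2 and mitosis, 9 were at least 2-fold lower in small cells in 2i (median -1.48) and 5 in N2B27 (median -0.71), and none was higher. Of 16 other apoptosis genes, 10 passed for the gate in 2i, 0 higher and 3 lower (median -0.12), with Xiap (-4.23) lowest, and 8 passed in N2B27, 1 higher and 3 lower (median -0.64), from Bid (-1.73) to Mcl1 (1.45). Of 6 other CDK inhibitors, 3 passed for each gate comparison and none reached 2-fold, with Cdkn1c (-0.67) and Cdkn2d (0.07) as the extremes in 2i and Cdkn2b (-0.87) and Cdkn1c (0.26) in N2B27. Between media in small cells, 2 of 10 apoptosis genes were higher and 1 lower in N2B27 (median 0.14), and 0 of 3 CDK inhibitors higher and 1 lower (median -0.89). In ungated cells these were 3 and 2 of 12 (median 0.11) and 0 and 1 of 3 (median -0.80).

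Of 11 immediate early and heat shock genes that respond to handling, 2 passed for the gate in 2i, Dusp1 (1.66, and 0.89 without the highest cell of each group) and Ier2 (-0.81), and 5 in N2B27, with Fos (0.39) highest and Junb (-1.44) lowest. Their summed level had a median of 374 and 595 normalized counts in 2i small and ungated cells and of 1168 and 1214 in N2B27. Egr1, a target of MEK signalling that was singled out after its values were seen, had counts in 17 of 20 and 20 of 21 N2B27 small and ungated cells against 1 of 12 2i small and 0 of 22 2i ungated cells. For the latter, 0 of 22 allows a share of cells with a count of up to 13.6%, which does not limit the share of cells that express the gene. Fosb was at 0 in each group and Hspa1b in 3 of 4, so the list was carried by a few genes.

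In cells left out for quality, the targets were also read, as counts per 1000000 on genes pooled over cells (CPM). The limits for leaving out a cell differed between the media. The 12 2i small cells left out had 53.3 CPM of Cdkn1a and 382 of Ccng1, against 272 and 304 in those kept, and Phlda3 was at 5.27 against 231. A single cell held 75.7% of their counts, and without it the values were 26.0, 244 and 20.8. The 2 2i ungated cells left out had 4.52 CPM of Cdkn1a against 303 in those kept. In N2B27, the 4 small cells left out had 349 CPM of Cdkn1a against 148 in those kept, and the 3 ungated cells left out had 369 against 94.2, with every Cdkn1a count in 1 of the 3. Phlda3 was at 495 against 217 in N2B27 ungated cells, and 582 of its 584 counts were in 1 cell.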

How the data were processed

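The authors prepared Smart-seq2 libraries, aligned them with GSNAP (build GRCm38), assigned reads to Ensembl genes with HTSeq, and deposited raw counts per gene and cell, a table per medium. Columns were matched to samples through the authors' run list. Genes took 72.4% of counts and spike-ins 3.85%, and rows that name no gene were left out. Within each library set, scater 1.30.1 removed cells beyond 3 median absolute deviations in total, genes or mitochondrial share. Phases were assigned with cyclone (scran 1.30.0), and size factors came from DESeq2 1.42.0 over 1227 genes with counts in all kept cells. No doublet caller was run on these single-cell libraries. Ratios were computed in Python 3.11.15 (numpy 2.4.6, scipy 1.17.1, pandas 2.3.3) and tested on simulated data. HTSeq leaves out reads on overlapping genes, and none of the 10 genes shares exonic bases with another gene of the table.

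The 10 genes and the lists were chosen with earlier results of these data known. Besides the 10, the text names the 3 highest and 3 lowest wider targets and the highest and lowest regulator, apoptosis gene, CDK inhibitor and handling gene of each gate comparison, and the 5 genes most like Mdm2 and Cdkn1a. An item that this rule selects is not reported here. The gene-by-gene test named in the study's methods was not run, because each group is 1 sample. Alternatives covered the filter on cells and genes, normalization, summary over cells, 2 unusual cells, depth, phase and pseudocount.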

Additional observations from a re-analysis of the deposited data

Results flagged for a closer look

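Trp53inp1 was past 2-fold in opposite directions in the groups compared. Small against ungated cells gave a log2 ratio of -1.27 in 2i and 3.03 in N2B27, and N2B27 against 2i gave 2.16 in small and -2.15 in ungated cells. The difference between these ratios was not tested, since each group is 1 sample. Both contrasts rest on the same 4 means, and 1 cell of each of 2 groups carries much of the level: the highest N2B27 small cell held 63.5% and the highest 2i ungated cell 47.2% of its group's sum.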

How the results depend on the processing

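Medians of the 10 genes and counts past 2-fold were recomputed under 14 alternatives. The main counts were 4, 1, 4 and 2 for the gate in 2i, the gate in N2B27, the medium in small and the medium in ungated cells, and 43.5%, 29.2%, 41.3% and 17.5% of all genes were past 2-fold. With means of log2 values per cell the counts of the gates were 7 and 6 (64.5% and 47.2% of all genes) and that of the medium in ungated cells was 6 (40.3%), with medians of -1.45 and -1.06 for the gates. With spike-in scaling they were 2, 4 and 7 for the first 3 comparisons (44.9%, 44.3% and 74.9% of all genes), and the median of the N2B27 gate was -0.59. S phase cells alone gave 2, 2, 0 and 4 (37.7%, 43.8%, 42.5% and 40.9%). For the gate in 2i the count was also 2 with scran size factors (42.2%) and with pooled counts (34.3%). For the medium in small cells it was 2 with pooled counts (35.0%), without the highest cell of each gene (32.8%) and without the 2i small cell of highest spike-in share (35.4%). With no cell left out, where size factors were computed from positive counts because no gene had counts in every cell, the N2B27 gate count was 2 (46.5%) and the median of the medium in ungated cells was 0.51. Ratios past 2-fold changed sign for Cdkn1a in the 2i gate (-0.16 pooled, -1.39 with means of log2 values, -0.56 without the highest cell, -0.74 without the cell of high spike-in share, -0.29 in S phase), for Phlda3 in small cells between media (0.34 without that cell, 0.26 in S phase), for Trp53inp1 under spike-in scaling (1.14 for the 2i gate, -1.38 for the medium in small cells), for Zmat3 under spike-in scaling (-0.33, medium in small cells) and for Cdkn1a with no cell left out (0.89, medium in ungated cells). The cause was not tested beyond what leaving out that cell shows. No paired analysis was possible because each group is 1 sample. Depth was at least 1364155 counts in every kept cell, and Bbc3, Trp53inp1 and Zmat3 had counts in the fewest cells over all groups.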
